A study of Gallus gallus with 24 samples.

Results

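Collagens, laminins and integrins are the chains of the muscle's extracellular matrix and the receptors that hold cells to it, and their transcripts were compared between the soleus and the pectoralis major of hens on 3 diets. A gene was included when its symbol followed the naming pattern of collagen alpha chains, laminin chains or integrin subunits and it reached at least 1 FPKM in 4 or more of the 24 libraries. FPKM is a fragment count per transcript length and per sequenced library, so levels of different genes can be set side by side. Of 55 genes with such a symbol among 20780 in the table, 34 met the level. They were 16 of 24 collagen chains, 5 of 9 laminin chains, 10 of 17 integrin subunits and 3 of 5 genes whose symbols share the integrin prefix but that encode no integrin subunit. The genes nearest the limit were COL22A1 and ITGA9, which reached 1 FPKM in exactly 4 libraries, and on the other side ITGA4 and COL25A1, which reached it in 3.

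Below the level were the collagens COL2A1, COL8A2, COL9A1, COL9A3, COL14A1, COL17A1, COL25A1 and COL26A1 and the laminins LAMA1, LAMA3, LAMB3 and LAMB4. The integrin subunits ITGA2, ITGA2B, ITGA4, ITGA8, ITGB6, ITGB7 and ITGB8 and the related symbols ITGB3BP and ITGBL1 were also below it. COL2A1, COL9A1 and COL9A3 form cartilage fibrils and COL17A1 anchors epidermis, and each reached 1 FPKM in 0 libraries. Because a gene could pass through 1 high group alone, a count over the 34 is not a count over all 55. LAMA2 and ITGA5 were not analysed here under those symbols. Entries without a symbol that the deposited table describes as laminin subunit alpha-2 are given under other observations.

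The hens were Guangyuan Grey chickens that entered the experiment at 150 days of age. Libraries came from soleus (SOL) and pectoralis major (PEM) at 210 days, after 12 h of fasting, with 4 libraries in each of 6 groups: SOL and PEM of hens on the normal control diet (CONT), of hens on a high-fat diet for 15 days (SHFD) and of hens on it for 60 days (LHFD). The labels describe SOL as a mixed oxidative and glycolytic muscle, sampled at its widest part without the surface layer, and PEM as a mainly fast glycolytic muscle, sampled at its skin-facing side, so sampling depth within the muscle cannot be told apart from muscle type. Both muscles were taken from the same birds and the replicates are described as biological, but which libraries share a bird is not stated, so p-values measure the spread between these samples.

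Muscle fibres are wrapped in a basement membrane in which a network of type IV collagen and a network of laminins are joined, and capillaries carry a basement membrane of their own. Outside it lies the interstitial matrix of fibrillar collagens I, III and V and of type VI collagen microfibrils, made mainly by fibroblasts. Integrins are pairs of an alpha and a beta subunit: the muscle fibre's main laminin receptor joins ITGA7 to ITGB1, while other alpha subunits bind collagen, fibronectin or ligands on blood cells.

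The muscle labels held at their defining genes. Slow-fibre troponin TNNI1 lay between 988 and 6172 FPKM in SOL and between 0.0715 and 6.5 FPKM in PEM, and the fast myosin MYH1E lay between 60.1 and 441 FPKM in SOL and between 8908 and 13618 FPKM in PEM. Libraries summed to between 474667 and 525731 FPKM with 9285 to 10590 genes at 1 FPKM or more; read depth is unknown. A pair of PEM libraries stood apart in matrix and immune genes. CONT PEM 2 had a summed level of 673 FPKM over macrophage markers, against 116 to 149 FPKM in the other 3 CONT PEM libraries, and LHFD PEM 1 had the highest summed fibroblast marker level of all libraries, 617 FPKM. Some results that rest on either are given with and without both, a choice made after the values were seen.

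Nearly all members that differed between the muscles were higher in SOL than in PEM. In the main fit COL4A1, COL4A2 and all 5 laminin chains passed under all 3 diets. Of the 5 fibrillar collagens, 2 passed in that fit in CONT hens and 0 in SHFD and LHFD hens. Without CONT PEM 2 and LHFD PEM 1, COL1A2 also passed in CONT hens, COL5A2 in SHFD hens and both COL5A1 and COL5A2 in LHFD hens. The roles were not tested against each other. In CONT hens 21 of 34 members were higher in SOL and 0 were lower (limma on log2(FPKM + 1), Benjamini-Hochberg adjusted p under 0.05 over 10944 genes), where 50.7% of all genes passed in either direction, 30.7% higher and 20.0% lower. In SHFD hens 16 were higher and 0 lower, against 51.6% of all genes called, 26.5% higher and 25.1% lower. In LHFD hens 15 were higher and 1 lower, against 43.8% called, 28.9% higher and 14.9% lower. As a share, 61.8% of the members passed in CONT hens and 47.1% in SHFD and in LHFD hens, so the share called in either direction was near that of all genes in SHFD and LHFD hens, while the directions were not split as they were over all genes. The median log2 fold change of the members was 0.71 in CONT, 0.50 in SHFD and 0.42 in LHFD hens, beside 0.12, 0.04 and 0.14 over all genes.

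Scaling moved these splits at the margin. With quantile normalization, which put the all-gene median in CONT hens at -0.07 in place of 0.12, 16 members were higher and 2 lower in CONT hens, 13 were higher and 1 lower in SHFD hens and 11 were higher and 3 lower in LHFD hens. Without CONT PEM 2 and LHFD PEM 1 the counts were 28 higher in CONT, 20 in SHFD and 18 in LHFD hens, with 0 lower in each.

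The same 13 members were higher in SOL under all 3 diets: COL4A1, COL4A2, LAMA4, LAMA5, LAMB1, LAMB2, LAMC1, COL8A1, COL12A1, COL13A1, COL20A1, ITGA11 and ITGB1. Over all genes 20.3% were higher in all 3 diets and 12.6% were lower in all 3, and 0 members were lower in all 3. Of the 13, COL12A1, COL13A1, COL20A1 and ITGA11 met the level of 1 FPKM through SOL libraries alone, as did COL22A1, so the inclusion rule favoured their direction. The other 9 also reached it in PEM libraries. Another 10 passed in no diet in the main fit: COL1A1, COL1A2, COL3A1, COL6A1, COL28A1, ITGA7, ITGAV, ITGB2, ITGB3 and ITGB1BP2. The plot of fold changes by role shows both groups.

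**Figure D1:**
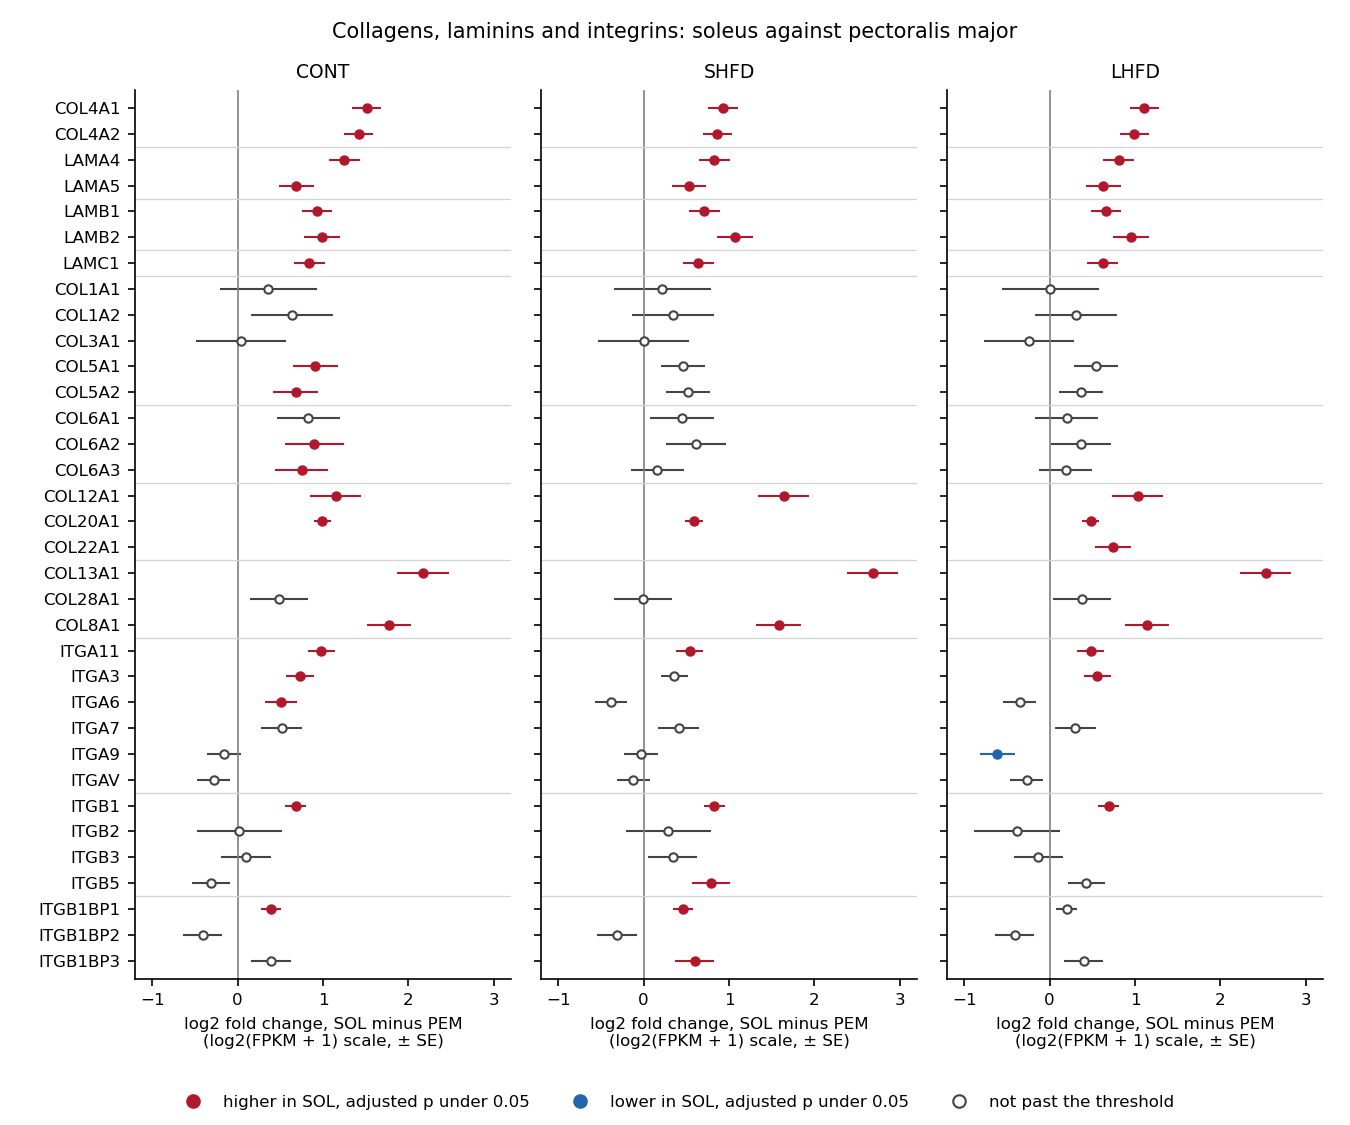
Log2 fold change of each member, SOL minus PEM, with its standard error (horizontal axis, log2(FPKM + 1) scale), by diet; members run down the page by role and grey lines part the roles. Filled red points are higher in SOL at an adjusted p under 0.05, blue lower, open points did not pass, and COL22A1 has no point in CONT and SHFD because it is listed at 0 in all PEM libraries there. COL4A1, COL4A2 and the 5 laminin chains at the top are filled under all 3 diets, while COL1A1, COL1A2 and COL3A1 are open in each.

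Both named type IV collagen chains were higher in SOL under all 3 diets. COL4A1 and COL4A2 encode the 2 chains of the network found in nearly all basement membranes, and they lie next to each other in the RefSeq annotation (GRCg7b). In CONT hens COL4A1 was at 51.0, 40.8, 33.2 and 34.5 FPKM in SOL and at 14.0, 16.6, 12.1 and 10.6 FPKM in PEM. SHFD hens had 26.9, 40.6, 35.9 and 27.7 FPKM in SOL and 16.9, 18.6, 15.3 and 15.1 FPKM in PEM. In LHFD hens the SOL values were 35.2, 31.6, 35.1 and 27.6 FPKM and the PEM values 19.2, 16.5, 11.7 and 11.5 FPKM. Every SOL library lay above every PEM library under each diet, and the lowest SOL library of all 12 lay above the highest PEM library. The log2 fold change was 1.51 ± 0.17 (SE; adjusted p = 4.2e-07) in CONT, 0.93 ± 0.17 (adjusted p = 1.5e-04) in SHFD and 1.11 ± 0.17 (adjusted p = 3.0e-05) in LHFD hens.

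COL4A2 ran between 16.5 and 36.0 FPKM in SOL and between 7.96 and 13.7 FPKM in PEM, again without overlap, with log2 fold changes of 1.42, 0.86 and 0.99 in CONT, SHFD and LHFD hens. Their sum lay between 43.4 and 87.0 FPKM in SOL and between 19.5 and 32.9 FPKM in PEM. Both chains passed under all 3 diets in every alternative fit and without any single library. COL4A1 and COL4A2 made up 28.7% ± 3.16 of the FPKM of the named collagens in SOL and 19.8% ± 7.69 in PEM of CONT hens (SD, n = 4 each). These sums and shares leave out 3 entries without a symbol that the deposited table annotates as type IV chains and that were lower in SOL of CONT hens. Those 3 summed to 2.78 ± 1.38 FPKM in SOL and 14.2 ± 6.35 FPKM in PEM of CONT hens. With them included, the sum lay between 44.9 and 91.6 FPKM in SOL and between 22.5 and 42.8 FPKM in PEM, still without overlap.

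All 5 laminin chains rose in SOL under all 3 diets. LAMA4, the alpha chain of vascular and some fibre basement membranes, was at 13.8, 10.7, 10.7 and 12.0 FPKM in SOL and at 3.41, 6.59, 3.46 and 4.50 FPKM in PEM of CONT hens. In SHFD hens it was at 6.56, 10.1, 8.64 and 8.07 FPKM in SOL and at 4.03, 4.96, 4.40 and 3.54 FPKM in PEM. LHFD hens had 8.04, 7.43, 6.88 and 6.87 FPKM in SOL and 5.87, 3.97, 2.74 and 2.87 FPKM in PEM. The groups did not overlap under any diet, and the highest PEM library in CONT and in LHFD hens was the one that stood apart in immune or fibroblast markers. Log2 fold changes were 1.25 ± 0.18 (adjusted p = 7.5e-06), 0.83 ± 0.18 (adjusted p = 6.5e-04) and 0.81 ± 0.18 (adjusted p = 0.001) in CONT, SHFD and LHFD hens.

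LAMB2, the beta chain enriched at the neuromuscular synapse, and LAMB1, the other widely used beta chain, were both higher in SOL. LAMB2 ran from 27.9 to 53.8 FPKM with a median of 36.0 in SOL and from 11.8 to 26.1 FPKM with a median of 18.1 in PEM, with log2 fold changes of 0.99, 1.07 and 0.95 in CONT, SHFD and LHFD hens. LAMB1 ran from 10.8 to 19.2 FPKM in SOL and from 4.69 to 11.3 FPKM in PEM, and the 2 ranges overlapped because LHFD PEM 1 reached 11.3. Its log2 fold changes were 0.93, 0.71 and 0.66. LAMC1, the gamma chain shared by most laminin trimers, was the other chain with a level near 30 FPKM in SOL, with a median of 33.0 FPKM there and 20.0 FPKM in PEM and log2 fold changes of 0.84, 0.64 and 0.62, of which the LHFD value was lost with only the groups compared.

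LAMA5, an alpha chain of mature vessels, was the lowest of the 5, with a median of 3.13 FPKM in SOL and 1.59 FPKM in PEM. It had the smallest support: log2 fold changes of 0.69, 0.53 and 0.63 passed at adjusted p = 0.00627, 0.0293 and 0.0134 in CONT, SHFD and LHFD hens, and in each diet the call was lost with quantile normalization. The LHFD call was also lost without LHFD SOL 1, and the SHFD call without SHFD SOL 3, SHFD SOL 4, SHFD PEM 2 or SHFD PEM 4. With no filter the SHFD call was lost as well. LAMA4 held 79.3% ± 1.73 of the FPKM of both named alpha chains in SOL and 74.0% ± 5.78 in PEM of CONT hens (SD, n = 4 each). That share leaves out entries without a symbol that the deposited table describes as laminin subunit alpha-2. The higher of them averaged 20.1 FPKM in SOL and 6.02 FPKM in PEM of CONT hens, above LAMA4 at 11.8 and 4.49 FPKM.

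**Figure D2:**
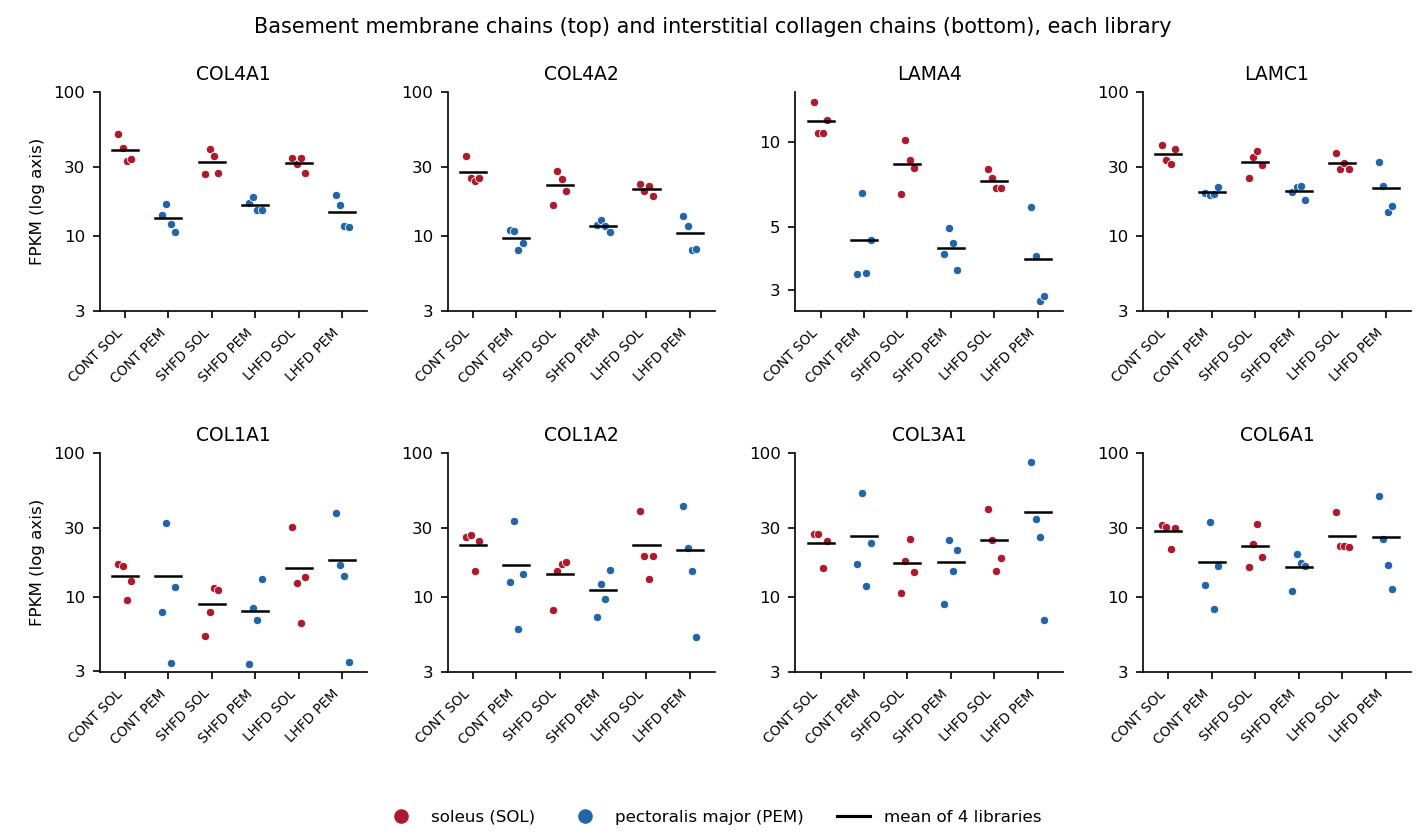
FPKM of 8 chains in each of the 24 libraries (log axis), SOL left of PEM within each diet; points are libraries and black bars means of 4. In the top panels COL4A1, COL4A2 and LAMA4 separate the muscles under each diet and LAMC1 overlaps only in LHFD hens; in the bottom panels the muscles overlap, with CONT PEM 2 and LHFD PEM 1 the highest PEM libraries in their groups.

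The interstitial collagens were spread widely within PEM and overlapped between the muscles. COL1A1, the main chain of type I fibrils, was at 17.0, 16.3, 9.49 and 12.8 FPKM in SOL and at 7.82, 32.5, 3.43 and 11.6 FPKM in PEM of CONT hens. In LHFD hens it was at 30.6, 12.4, 6.59 and 13.7 FPKM in SOL and at 38.5, 16.7, 13.8 and 3.49 FPKM in PEM. COL3A1, the chain of the thinner type III fibrils, was at 27.3, 27.4, 15.8 and 24.4 FPKM in SOL and at 16.9, 53.3, 11.9 and 23.8 FPKM in PEM of CONT hens. The highest values of both genes in PEM were those of CONT PEM 2 and LHFD PEM 1, where COL3A1 reached 87.0 FPKM, and each PEM group also held at least 1 library below all SOL libraries of its diet.

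COL1A1 had log2 fold changes of 0.36 ± 0.57, 0.22 ± 0.57 and 0.01 ± 0.57 (SE) in CONT, SHFD and LHFD hens and COL3A1 of 0.04, 0.00 and -0.24 with an SE of 0.53, so no fold change of either gene exceeded its standard error. COL1A2, the second type I chain, did not pass in any diet, and passed in CONT hens when both libraries that stood apart were left out (1.05, adjusted p = 0.0357). Fibrillar chains COL5A1 and COL5A2, which set the width of type I fibrils, were higher in SOL of CONT hens, at 0.91 ± 0.26 (adjusted p = 0.00528) and 0.68 ± 0.26 (adjusted p = 0.0336). COL5A1 ran from 2.98 to 7.94 FPKM over SOL and from 1.45 to 5.87 FPKM over PEM. The COL5A2 call was lost without CONT SOL 1, CONT SOL 2, CONT PEM 1, CONT PEM 3 or CONT PEM 4. It was also lost with quantile normalization and with no filter. Neither gene passed in SHFD or LHFD hens in the main fit. Without both libraries that stood apart, COL5A2 passed in SHFD hens (0.52, limma adjusted p = 0.0376). In LHFD hens COL5A1 (0.74, adjusted p = 0.00883) and COL5A2 (0.62, adjusted p = 0.0278) passed in that fit. Both genes also passed in SHFD hens with only the groups compared (adjusted p = 0.0483 and 0.0247).

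Type VI collagen, the microfibril between basement membrane and interstitium, had positive log2 fold changes in its 3 chains under each diet. COL6A1 was at 31.5, 30.9, 21.7 and 30.2 FPKM in SOL and at 12.1, 33.4, 8.21 and 16.5 FPKM in PEM of CONT hens, with all 4 SOL libraries above 3 of the 4 PEM libraries. COL6A2 (0.90 ± 0.35, adjusted p = 0.0354) and COL6A3 (0.75 ± 0.31, adjusted p = 0.0492) passed in CONT hens, and COL6A1 had 0.83 ± 0.37 at adjusted p = 0.065, or 1.19 at adjusted p = 0.00141 without the 2 libraries that stood apart. In SHFD and LHFD hens 0 of the 3 passed, with log2 fold changes from 0.16 to 0.61 and from 0.19 to 0.37. Without the 2 libraries that stood apart, COL6A2 passed in SHFD hens (0.61, limma adjusted p = 0.0329) and in LHFD hens (0.75, adjusted p = 0.0196). It also passed in SHFD hens with only the groups compared (adjusted p = 0.0455).

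The calls of COL6A2 and COL6A3 in CONT hens depended on single libraries. COL6A2 was lost without CONT SOL 1, 2 or 4 or CONT PEM 1, 3 or 4. COL6A3 was lost without CONT SOL 1, 2 or 4, CONT PEM 1, 3 or 4, LHFD SOL 2, 3 or 4, SHFD SOL 1, 2 or 4, LHFD PEM 2 or any of the 4 SHFD PEM libraries. Both calls were lost with no filter, and that of COL6A3 also with quantile normalization and with only the groups compared. Type VI chains together held 32.8% ± 1.17 of the FPKM of the named collagens in SOL and 33.4% ± 1.12 in PEM of CONT hens (SD, n = 4 each), while the fibrillar chains held 29.97% ± 2.10 in SOL and 42.8% ± 7.10 in PEM. These shares leave out the collagen entries without a symbol.

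The largest fold changes belonged to a collagen at a low level. COL13A1, a transmembrane collagen of the neuromuscular junction, was at 2.83, 7.63, 5.36 and 5.89 FPKM in SOL and at 0.0964, 0.699, 0.499 and 0.276 FPKM in PEM of CONT hens. SHFD hens had 6.05, 3.43, 5.75 and 14.3 FPKM in SOL and 0.370, 0.0569, 0.241 and 0.0641 FPKM in PEM. In LHFD hens the SOL values were 5.23, 8.06, 4.96 and 11.2 FPKM and the PEM values 0.938, 0.203, 0.309 and 0.203 FPKM. All SOL libraries lay above 2 FPKM and all PEM libraries below 1 FPKM, and the log2 fold changes were 2.17 ± 0.30 (adjusted p = 4.8e-06), 2.68 ± 0.30 (adjusted p = 3.3e-07) and 2.53 ± 0.30 (adjusted p = 9.0e-07) in CONT, SHFD and LHFD hens. With PEM below the added 1 FPKM, these fold changes understate the ratio of the levels.

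COL8A1, a short-chain collagen of vessel walls, had medians of 3.37 FPKM in SOL and 0.819 FPKM in PEM and log2 fold changes of 1.77, 1.58 and 1.14. It reached 1 FPKM in 12 SOL and 3 PEM libraries, so the inclusion rule favoured this direction. The fibril-associated COL12A1, found in dense connective tissue, had medians of 2.02 FPKM in SOL and 0.25 FPKM in PEM and log2 fold changes of 1.15, 1.64 and 1.03. Neither gene's SOL and PEM libraries overlapped. COL22A1, a collagen of the myotendinous junction, was at 1.07, 1.42, 1.03 and 0.873 FPKM in SOL of CONT hens and is listed at 0 in all 8 PEM libraries of CONT and SHFD hens. In LHFD hens it was at 2.52, 0.369, 0.246 and 0.590 FPKM in SOL and at 0, 0, 0.0118 and 0.207 FPKM in PEM (0.74, adjusted p = 0.00626, lost with only the groups compared). COL20A1, also fibril-associated, had medians of 0.854 FPKM in SOL and 0.252 FPKM in PEM and log2 fold changes of 0.99, 0.59 and 0.48. Its LHFD call was lost with quantile normalization. COL28A1, a collagen related to von Willebrand factor, ran from 1.98 to 7.26 FPKM in SOL and from 1.83 to 9.31 FPKM in PEM and did not pass in any diet. Without the 2 libraries that stood apart it passed in CONT hens (0.88, adjusted p = 0.0149).

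Among the receptors, ITGB1, the beta subunit shared by most matrix-binding integrins, separated the muscles. It was at 62.4, 56.7, 59.6 and 58.1 FPKM in SOL and at 34.1, 43.9, 34.1 and 34.8 FPKM in PEM of CONT hens. In SHFD hens the values were 76.0, 63.2, 75.1 and 57.9 FPKM in SOL and 39.5, 34.7, 37.1 and 38.7 FPKM in PEM. LHFD hens had 62.3, 56.1, 50.02 and 53.5 FPKM in SOL and 39.2, 28.1, 37.0 and 32.6 FPKM in PEM. No PEM library reached the lowest SOL library, and log2 fold changes of 0.68 ± 0.12 (adjusted p = 5.1e-05), 0.83 ± 0.12 (adjusted p = 4.7e-06) and 0.69 ± 0.12 (adjusted p = 6.2e-05) held in every alternative and without any single library.

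Its partner in muscle fibres, ITGA7, was the most abundant alpha subunit but did not pass the threshold in any diet in the main fit. In CONT hens ITGA7 was at 78.4, 100.2, 86.3 and 103 FPKM in SOL and at 50.4, 82.2, 51.5 and 76.5 FPKM in PEM, so that only CONT PEM 2 reached the lowest SOL library. Its log2 fold changes were 0.52 ± 0.24 (adjusted p = 0.072), 0.41 ± 0.24 (adjusted p = 0.146) and 0.30 ± 0.24 (adjusted p = 0.318) in CONT, SHFD and LHFD hens. The CONT difference passed without the 2 libraries that stood apart (0.64, adjusted p = 0.0354). It also passed with equal sums over nuclear-encoded genes (0.65, limma adjusted p = 0.0215) and with only the groups compared (0.52, adjusted p = 0.045). Without SHFD SOL 4 it passed as well (adjusted p = 0.0359). In SHFD hens ITGA7 passed without SHFD SOL 1 (0.61, adjusted p = 0.0353). ITGA7 made up 88.7% ± 1.49 of the FPKM of the 6 alpha members in SOL and 88.5% ± 2.57 in PEM of CONT hens (SD, n = 4 each).

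The other alpha subunits were at a few FPKM. ITGA11, a fibroblast receptor for fibrillar collagen, was higher in SOL under each diet (0.98, 0.54 and 0.48), with medians of 1.01 FPKM in SOL and 0.201 FPKM in PEM. Its SHFD and LHFD calls were lost with quantile normalization, and the LHFD call also without LHFD SOL 1, LHFD PEM 3 or LHFD PEM 4. ITGA3, a laminin receptor, was higher in SOL of CONT hens (0.73, adjusted p = 8.8e-04) and of LHFD hens (0.56, adjusted p = 0.00832), and in SHFD hens had 0.36 at adjusted p = 0.067. The LHFD call of ITGA3 was lost with quantile normalization. ITGA6, another laminin receptor, was higher in SOL of CONT hens (0.51, adjusted p = 0.0273) and had -0.38 and -0.35 in SHFD and LHFD hens, which did not pass. With quantile normalization the CONT call was lost and ITGA6 was lower in SOL of SHFD (-0.43, adjusted p = 0.045) and LHFD hens (-0.51, adjusted p = 0.0226). It was also lower in SHFD hens without SHFD PEM 1 (-0.56, limma adjusted p = 0.0149). In LHFD hens it was lower with only the groups compared (-0.35, adjusted p = 0.0429) and without SHFD PEM 4 (-0.35, adjusted p = 0.0452). The CONT call was also lost without CONT SOL 2, CONT SOL 3, CONT PEM 3 or CONT PEM 4. ITGAV, the vitronectin receptor's alpha subunit, had -0.28, -0.12 and -0.27, and did not pass in any diet, but was lower in SOL of CONT and LHFD hens with quantile normalization (-0.57, adjusted p = 0.00317, and -0.49, adjusted p = 0.0106).

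ITGA9, a receptor for tenascin and osteopontin, was the 1 member lower in SOL in the main fit. It met the level through PEM libraries of high-fat hens alone (LHFD PEM 1, 3 and 4 and SHFD PEM 1), so the inclusion rule favoured this direction. In LHFD hens it was at 0.715, 0.496, 0.419 and 0.459 FPKM in SOL and at 2.06, 0.392, 1.95 and 1.31 FPKM in PEM. Of the 4 PEM libraries, 3 lay above all SOL libraries and LHFD PEM 2 lay below them, and the log2 fold change of -0.61 ± 0.20 (adjusted p = 0.0192) was lost without LHFD PEM 1 or LHFD PEM 3, with a pseudocount of 0.1 and with only the groups compared. The call was also lost without both libraries that stood apart.

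The beta subunits other than ITGB1 gave 1 call between the muscles. ITGB5, which pairs with ITGAV, was at 13.2, 14.5, 12.5 and 23.0 FPKM in SOL and at 11.5, 8.94, 7.97 and 6.21 FPKM in PEM of SHFD hens, apart in all libraries (0.79 ± 0.22, adjusted p = 0.00447). In CONT hens it averaged 17.1 FPKM in SOL and 22.2 FPKM in PEM and did not pass. Without CONT PEM 4 it was lower in SOL of CONT hens (-0.54, limma adjusted p = 0.0307). In LHFD hens it averaged 13.4 FPKM in SOL and 9.83 FPKM in PEM, and passed with only the groups compared (0.43, adjusted p = 0.048). ITGB2, the leukocyte beta subunit, was at 5.63, 3.63, 3.68 and 3.94 FPKM in SOL and at 2.54, 26.4, 1.53 and 1.77 FPKM in PEM of CONT hens. CONT PEM 2 alone set the PEM mean there, and without it and LHFD PEM 1 the log2 fold change was 0.82 at adjusted p = 0.00352 in place of 0.02. ITGB3, the beta subunit of thrombocytes and vessels, did the same, with 3.81 FPKM in CONT PEM 2 against 0.343 to 0.472 FPKM in the other 3 PEM libraries, and 0.54 at adjusted p = 0.00205 without both libraries.

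The other 3 members encode proteins that bind integrin beta1 tails. ITGB1BP3, the muscle-specific protein also known as nicotinamide riboside kinase, was the most abundant of all 34 members, with medians of 140 FPKM in SOL and 101 FPKM in PEM, and was higher in SOL of SHFD hens (0.60, adjusted p = 0.0323), a call lost without SHFD SOL 1, 2 or 4 or SHFD PEM 1 or 3. ITGB1BP1, a cytoplasmic inhibitor of integrin activation, was higher in SOL of CONT (0.39) and SHFD hens (0.46). With quantile normalization the ITGB1BP3 call and the CONT call of ITGB1BP1 were lost. The ITGB1BP3 call was also lost with no filter. ITGB1BP2, melusin, a striated-muscle chaperone-like protein, had medians of 28.5 FPKM in SOL and 40.3 FPKM in PEM and log2 fold changes of -0.41, -0.31 and -0.41. It did not pass in any diet in the main fit, with adjusted p from 0.146 to 0.264. ITGB1BP2 was lower in SOL of LHFD hens with only the groups compared (-0.41, limma adjusted p = 0.033). Without SHFD SOL 2 it was lower in SOL of SHFD hens (-0.54, adjusted p = 0.0431).

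The balance between related chains within a library was compared over all diets for 6 pairs by an exact permutation test of muscle within diet (two-sided, 343000 arrangements, smallest possible p 5.8e-06, adjusted over the 6). The chains of a pair need not belong to the same molecule. On the log2 scale COL1A1 to COL1A2 averaged -0.64 ± 0.17 in SOL and -0.40 ± 0.26 in PEM (SD, n = 12 each; adjusted p = 0.0445), and COL3A1 to COL1A1 averaged 0.77 ± 0.26 in SOL and 1.04 ± 0.28 in PEM (exact permutation, adjusted p = 0.045). COL4A1 to COL4A2 differed by 0.10 (exact permutation, adjusted p = 0.0445), with 0.54 ± 0.09 in SOL and 0.44 ± 0.10 in PEM. All 3 were lost with a pseudocount of 0.1 (adjusted p from 0.077 to 0.0935). They also rest on single libraries: of the 24 libraries left out in turn, 11 ended the call of COL1A1 to COL1A2, 16 that of COL3A1 to COL1A1 and 13 that of COL4A1 to COL4A2, with adjusted p up to 0.0723, 0.101 and 0.0917. LAMB1 to LAMB2 (-0.24) and COL6A3 to COL6A1 (-0.13) did not pass (adjusted p = 0.115 for both). ITGB1 to ITGB5 was 0.43 higher in SOL (adjusted p = 0.0445, also lost with a pseudocount of 0.1 and without any 1 of 12 libraries, with adjusted p up to 0.0723), and by diet it averaged 1.74 in SOL and 0.75 in PEM of CONT hens but 2.07 in SOL and 2.02 in PEM of SHFD hens.

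Markers of some other cell types were mostly higher in SOL as well. The counts below are to be read beside the 50.7%, 51.6% and 43.8% of all genes called in CONT, SHFD and LHFD hens. Over all genes 30.7%, 26.5% and 28.9% were higher in SOL. In bulk tissue, fewer cells of a type and less RNA per cell cannot be told apart. Endothelial markers summed to 127 to 200 FPKM over SOL libraries and 56.7 to 111 FPKM over PEM libraries, without overlap, and 12 of 13 were higher in SOL of CONT hens, 12 of SHFD hens and 11 of LHFD hens, with 0 lower and 0 at 0 throughout a group. Smooth muscle and pericyte markers, among which DES is also a muscle fibre gene, were higher in SOL for 10 of 11, 9 and 10 in CONT, SHFD and LHFD hens. The part of either cell type in the higher type IV collagen and laminin of SOL was not tested.

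Fibroblast markers overlapped more: they summed to 331 to 490 FPKM in SOL and 193 to 617 FPKM in PEM, and 5, 6 and 4 of the 12 tested of 14 were higher in SOL of CONT, SHFD and LHFD hens. The share called, 41.7%, 50% and 33.3%, was below that of all genes in each diet, but above the share of all genes higher in SOL. CONT PEM 2 (403 FPKM) and LHFD PEM 1 were the highest PEM libraries of their groups in fibroblast markers, as they were in fibrillar collagen, at 129 and 181 FPKM summed over the 5 chains. Macrophage markers reached 673 FPKM in CONT PEM 2 and 396 FPKM in LHFD PEM 1, against 105 to 164 FPKM in the other 10 PEM libraries. Their part in the spread of the interstitial collagens was not tested. Among neuromuscular junction markers, 7 of 9 were higher in SOL under each diet and 1, 1 and 2 lower in CONT, SHFD and LHFD hens, beside COL13A1 and LAMB2.

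The remaining marker lists gave mixed values. Adipocyte markers summed to 262 to 506 FPKM in SOL and 1203 to 1907 FPKM in PEM, where most of it was GPD1, which is also a muscle fibre gene, while 6, 7 and 6 of 9 tested were higher in SOL of CONT, SHFD and LHFD hens and 2 lower in each. Tendon and myotendinous junction markers summed to 55.6 to 969 FPKM in SOL and 53.7 to 1480.5 FPKM in PEM, most of it ANKRD1 at the high end, with 4, 3 and 3 of 6 higher in SOL and 0, 0 and 1 lower. That list includes COL22A1, itself a member and among those higher in CONT and LHFD hens. Schwann cell and nerve markers summed to 29.7 to 44.4 FPKM in SOL and 16.7 to 31.9 FPKM in PEM, with 4, 2 and 3 of 6 higher and 0 lower. Their share called, 66.7%, 33.3% and 50%, was above that of all genes in CONT and LHFD hens and below it in SHFD hens. Satellite cell and regenerating fibre markers summed to 163 to 456 FPKM in SOL and 65.0 to 191 FPKM in PEM, with 4, 5 and 5 of 7 higher and 1, 1 and 0 lower. Of the macrophage, lymphocyte and thrombocyte lists, each had at most 1 marker called under any diet. Macrophage markers summed to 184 to 434 FPKM (median 336) in SOL and 105 to 673 FPKM (median 141) in PEM. Lymphocyte markers summed to 35.6 to 80.8 FPKM (median 55.8) in SOL and 25.7 to 185 FPKM (median 29.4) in PEM. Thrombocyte markers summed to 8.69 to 24.8 FPKM (median 13.5) in SOL and 3.18 to 16.5 FPKM (median 6.38) in PEM. The thrombocyte list includes the member ITGB3. The part of these cell types in the members' differences was not tested.

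**Figure D3:**
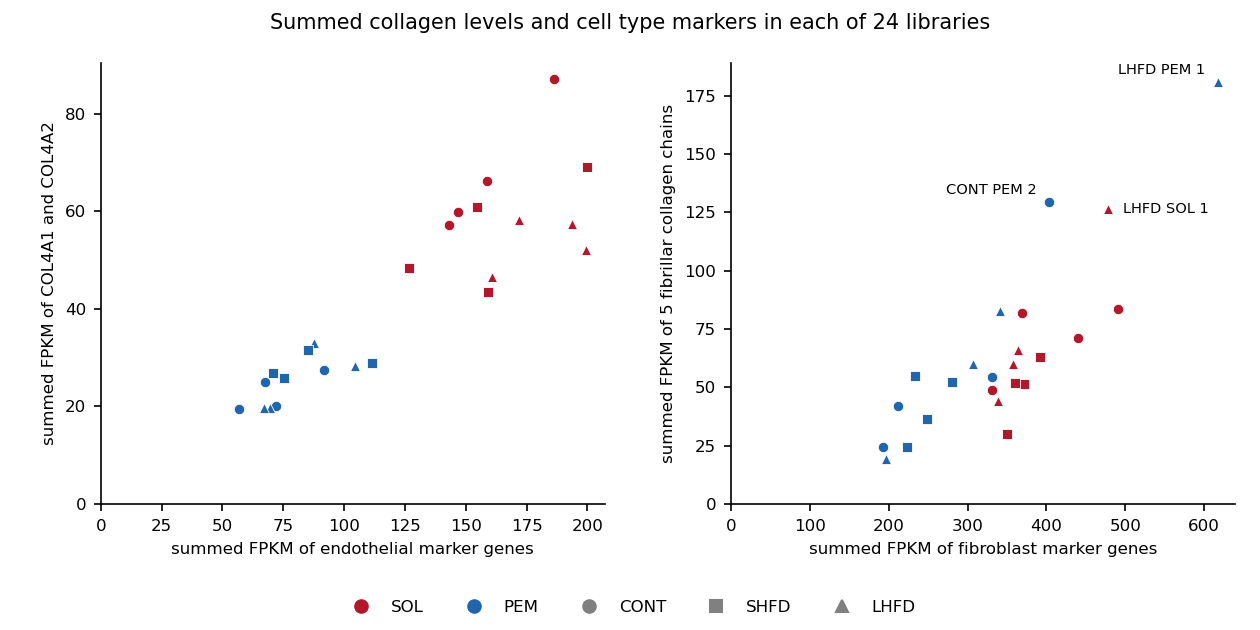
Left, summed FPKM of COL4A1 and COL4A2 against summed FPKM of 13 endothelial marker genes; right, summed FPKM of the 5 fibrillar chains against summed FPKM of 14 fibroblast marker genes; each point is 1 of 24 libraries, coloured by muscle and shaped by diet. On the left the muscles form separate clouds (43.4 to 87.0 against 19.5 to 32.9 FPKM of type IV collagen); on the right they overlap, and LHFD PEM 1 (181 FPKM) and CONT PEM 2 (129 FPKM) lie above the other PEM libraries.

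Other genes of the same pathways were counted from lists of their own, to be read beside the 50.7%, 51.6% and 43.8% of all genes called between the muscles in CONT, SHFD and LHFD hens. Over all genes 30.7%, 26.5% and 28.9% were higher in SOL and 20.0%, 25.1% and 14.9% lower. Of 15 matrix proteases and inhibitors tested, 11 were higher and 0 lower in SOL of CONT hens, 11 and 0 in SHFD hens and 8 and 0 in LHFD hens, with a median log2 fold change of 0.67, 0.65 and 0.56. MMP11, a stromal protease, averaged 5.14 ± 2.24 FPKM in SOL and 0.425 ± 0.313 FPKM in PEM of CONT hens (2.07, adjusted p = 3.9e-05), and TIMP2, an inhibitor of MMP2, averaged 103 ± 9.64 FPKM in SOL and 67.8 ± 24.3 FPKM in PEM (0.66, adjusted p = 0.00367; SD, n = 4 each). Of 16 small proteoglycans and other matrix ligands, 8, 8 and 6 were higher in SOL of CONT, SHFD and LHFD hens and 0 lower. Elastin (ELN) averaged 10.6 ± 2.18 FPKM in SOL and 3.05 ± 0.951 FPKM in PEM of CONT hens (1.53, adjusted p = 4.7e-05).

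Enzymes and chaperones of collagen folding and cross-linking split within the list: 12 were higher and 2 lower of 23 in CONT hens, and 10 higher and 2 lower in SHFD and in LHFD hens. The share called, 60.9%, 52.2% and 52.2%, was near the 51.6% of all genes in SHFD hens. In CONT and LHFD hens it was above the 50.7% and 43.8% of all genes. SERPINH1, the collagen chaperone, averaged 35.7 ± 4.12 FPKM in SOL and 13.9 ± 7.89 FPKM in PEM of CONT hens (1.42, adjusted p = 1.5e-04). The lysyl hydroxylase PLOD2 was higher in SOL (2.18, adjusted p = 2.1e-07), while the lysyl hydroxylase PLOD1 (-1.02, adjusted p = 1.7e-04) and the prolyl hydroxylase subunit P4HA2 (-0.95, adjusted p = 3.6e-05) were lower there, in SHFD and LHFD hens as well.

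Among basement membrane partners and the dystroglycan complex, which ties laminin to the fibre's dystrophin, 9 of 21 were higher and 2 lower in CONT hens, 10 and 2 in SHFD hens and 9 and 2 in LHFD hens, or 52.4%, 57.1% and 52.4% called. This share was near the 50.7% of all genes in CONT hens and above the 51.6% and 43.8% in SHFD and LHFD hens. HSPG2, the basement membrane proteoglycan perlecan, averaged 90.5 ± 12.95 FPKM in SOL and 22.5 ± 3.44 FPKM in PEM of CONT hens (1.96, adjusted p = 3.6e-07). SGCA (1.12), SGCB (0.68) and SGCE (0.88), sarcoglycans of the fibre membrane, were higher in SOL of CONT hens. Of 23 integrin adaptors 11, 10 and 11 were higher and 2, 1 and 2 lower in CONT, SHFD and LHFD hens, or 56.5%, 47.8% and 56.5% called. This share was above the 50.7% and 43.8% of all genes in CONT and LHFD hens and below the 51.6% in SHFD hens. The 2 talins, which link integrin tails to actin, went opposite ways: TLN1 averaged 28.1 ± 2.61 FPKM in SOL and 9.83 ± 3.60 FPKM in PEM of CONT hens (1.48, adjusted p = 3.4e-07), and TLN2 averaged 7.27 ± 0.853 FPKM in SOL and 16.0 ± 4.21 FPKM in PEM (-1.01, adjusted p = 8.3e-05).

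High-fat feeding left few marks on these genes. In PEM, 0 members were higher and 1 lower in SHFD against CONT hens, where 1.07% of all genes passed, 0.539% higher and 0.530% lower. In the same muscle 2 were higher and 1 lower in LHFD against CONT hens, where 6.94% passed, 2.05% higher and 4.90% lower. In LHFD against SHFD hens 0 members passed in PEM (smallest adjusted p = 0.369, 1 member at an unadjusted p under 0.05; 0.201% of all genes called, 0.119% higher and 0.0822% lower). In SOL 0 passed in SHFD against CONT hens (smallest adjusted p = 0.0699, 6 members at an unadjusted p under 0.05; 0.557% of all genes called, 0.164% higher and 0.393% lower). COL20A1 alone was lower in LHFD against CONT hens in the main fit (0.521% called, 0.228% higher and 0.292% lower) and 0 passed in LHFD against SHFD hens (1 at an unadjusted p under 0.05; 0.886% called, 0.621% higher and 0.265% lower). Without LHFD SOL 1, COL22A1 was lower in SOL of SHFD (-0.59, limma adjusted p = 0.0215) and LHFD (-0.58, adjusted p = 0.0399) than of CONT hens. COL22A1 met the level through LHFD SOL 1 and CONT SOL libraries alone, which favoured this direction. The shares of members called, 2.94%, 8.82% and 2.94% where any was called, rest on 1 to 3 genes, and the count in LHFD PEM is near the share of all genes. The 2 high-fat diets share their CONT libraries, so calls in both are not independent.

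ITGB5 was the member lower in PEM under both. It was at 22.8, 24.6, 28.6 and 12.9 FPKM in CONT, 11.5, 8.94, 7.97 and 6.21 FPKM in SHFD and 11.4, 6.67, 10.998 and 10.2 FPKM in LHFD hens. Every high-fat PEM library lay below the lowest CONT library, and CONT PEM 4 was well below the other 3 CONT libraries. The log2 fold change was -1.24 ± 0.22 (adjusted p = 0.0101) for SHFD and -1.07 ± 0.22 (adjusted p = 0.00519) for LHFD against CONT hens. Both calls held without any single library, but with the spread taken only from the groups compared they were lost (adjusted p = 0.207 and 0.0924). In SOL, ITGB5 averaged 17.1 ± 2.18 FPKM in CONT, 15.8 ± 4.88 FPKM in SHFD and 13.4 ± 0.863 FPKM in LHFD hens (SD, n = 4 each) and did not pass (-0.14 and -0.33).

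ITGA6 was higher in PEM of LHFD hens. Its PEM values were 4.15, 4.45, 3.13 and 2.74 FPKM in CONT, 3.996, 5.12, 6.23 and 11.05 FPKM in SHFD and 7.26, 6.05, 6.05 and 6.83 FPKM in LHFD hens. All LHFD libraries lay above all CONT libraries, while SHFD libraries overlapped both. The log2 fold change for LHFD against CONT hens was 0.72 ± 0.19 (adjusted p = 0.0212), lost without LHFD PEM 1, CONT PEM 3 or CONT PEM 4 and with the spread of only the groups compared. For SHFD against CONT hens it was 0.65 ± 0.19 (adjusted p = 0.0914), and it passed without SHFD PEM 1 (0.83, adjusted p = 0.0408). In SOL it averaged 5.51 ± 0.560, 4.53 ± 0.596 and 4.96 ± 0.793 FPKM in CONT, SHFD and LHFD hens (SD, n = 4 each).

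ITGA9 was the other member higher in PEM of LHFD hens, and 3 of the 4 libraries through which it met the level were of that group, which favoured this direction. It was at 0.253, 0.376, 0.551 and 0.491 FPKM in CONT, 1.37, 0.652, 0.716 and 0.139 FPKM in SHFD and 2.06, 0.392, 1.95 and 1.31 FPKM in LHFD hens. In LHFD, 3 libraries lay above all CONT libraries and LHFD PEM 2 lay among them, and LHFD PEM 1, high in fibroblast and macrophage markers, had the highest value. The log2 fold change of 0.72 ± 0.20 (adjusted p = 0.0366) was lost without any 1 of CONT PEM 1, 2, 3 and 4 or LHFD PEM 1, 3 and 4, without both libraries that stood apart, with a pseudocount of 0.1, with no filter and with only the groups compared.

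COL20A1, a fibril-associated collagen at low level, was the member lower in SOL of LHFD hens. It met the level through 5 libraries, all 4 CONT SOL libraries and SHFD SOL 3, which favoured this direction. Its SOL values were 1.85, 1.21, 1.29 and 1.57 FPKM in CONT, 0.859, 0.784, 1.12 and 0.754 FPKM in SHFD and 0.675, 0.728, 0.850 and 0.755 FPKM in LHFD hens. Both high-fat groups lay wholly below CONT. The log2 fold change was -0.49 ± 0.10 (adjusted p = 0.0342) for LHFD and -0.39 ± 0.10 (adjusted p = 0.0699) for SHFD against CONT hens. The LHFD call was lost without any 1 of the 4 LHFD SOL libraries or CONT SOL 1, 3 or 4, with a pseudocount of 0.1 and with only the groups compared. In PEM it stayed between 0.0544 and 0.384 FPKM in all 12 libraries.

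**Figure D4:**
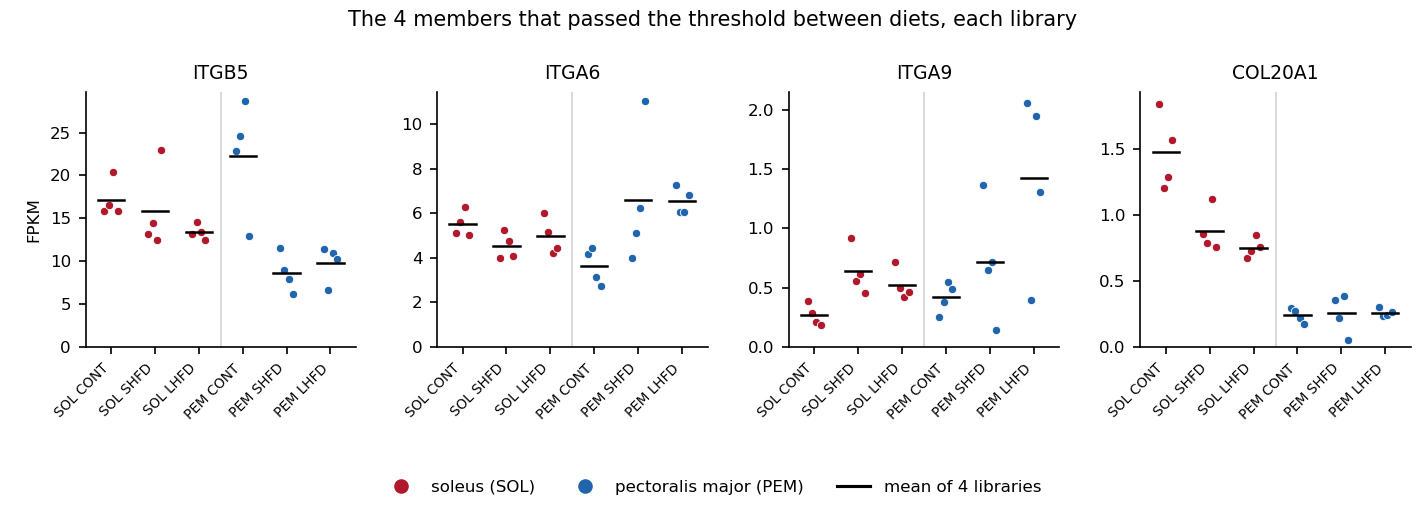
FPKM of ITGB5, ITGA6, ITGA9 and COL20A1 in each library, SOL left of PEM and the diets in the order CONT, SHFD, LHFD; points are libraries and black bars means of 4. ITGB5 in PEM is at 12.9 to 28.6 FPKM in CONT and 6.21 to 11.5 FPKM in the high-fat groups, and COL20A1 in SOL is at 1.21 to 1.85 FPKM in CONT and 0.675 to 1.12 FPKM in the high-fat groups.

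COL4A1, COL4A2 and the 5 laminin chains did not pass between diets in either muscle, while the 3 type IV entries without a symbol were lower in PEM of LHFD than of CONT hens. LAMA4 in SOL came nearest: its LHFD values of 6.87 to 8.04 FPKM and its SHFD values of 6.56 to 10.1 FPKM lay below the CONT values of 10.7 to 13.8 FPKM, with a log2 fold change of -0.62 ± 0.18 (adjusted p = 0.123) for LHFD and -0.46 ± 0.18 (adjusted p = 0.2) for SHFD against CONT hens. The LHFD difference passed without CONT PEM 2 and LHFD PEM 1 (adjusted p = 0.0299) and with only the groups compared (adjusted p = 0.0453). COL4A1 and COL4A2 summed to 57.2 to 87.0 FPKM in SOL of CONT, 43.4 to 69.0 FPKM of SHFD and 46.5 to 58.3 FPKM of LHFD hens, ranges that overlap.

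Fibrillar collagen in PEM had its widest range under LHFD, from 19.4 to 181 FPKM summed over 5 chains, beside 24.5 to 129 FPKM in CONT and 24.4 to 55.0 FPKM in SHFD hens. COL3A1 in PEM was at 16.9, 53.3, 11.9 and 23.8 FPKM in CONT, 8.86, 25.0, 15.2 and 21.1 FPKM in SHFD and 87.0, 34.8, 26.2 and 6.87 FPKM in LHFD hens. LHFD PEM 1 held the highest and LHFD PEM 4 the lowest value of all 12, and the log2 fold change for LHFD against CONT hens was 0.28 ± 0.53 (adjusted p = 0.825). Of the related lists, the prolyl 3-hydroxylase P3H3 was the 1 of 23 folding and cross-linking genes called in PEM of LHFD hens, at 0.744 ± 0.310 FPKM in LHFD and 1.75 ± 0.370 FPKM in CONT hens (SD, n = 4 each; -0.66, adjusted p = 0.0321). The inhibitor TIMP3 (1.07, adjusted p = 0.024) and the protease ADAMTS9 (0.60, adjusted p = 0.027) were the 2 of 15 proteases and inhibitors higher in PEM of LHFD hens. THBS1, the integrin ligand thrombospondin, was the 1 of 16 matrix ligands, at 7.86 ± 1.69 FPKM in LHFD and 2.30 ± 1.15 FPKM in CONT hens (SD, n = 4 each; 1.47, adjusted p = 0.0224). The shares called in these lists, 4.35%, 13.3% and 6.25%, stand beside 6.94% of all genes and rest on 1 or 2 genes each. Of 21 basement membrane partners and 23 integrin adaptors, 0 were called in PEM of LHFD against CONT hens.

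Whether diet acted differently in the muscles was tested as the difference of the diet effects, SOL minus PEM. For SHFD 0 members passed (0.00914% of all genes; 5 members at an unadjusted p under 0.05) and for LHFD 0 passed (0% of all genes; 4 at an unadjusted p under 0.05). The largest SHFD differences were ITGB5, 1.10 ± 0.31 (adjusted p = 0.441), and ITGA6, -0.89 ± 0.26 (adjusted p = 0.512), and for LHFD COL20A1 had -0.52 ± 0.15 (adjusted p = 0.4) and ITGA6 -0.86 ± 0.26 (adjusted p = 0.523). The calls in one muscle and not the other are therefore not shown to differ between the muscles.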

How the data were processed

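The table deposited by the authors holds FPKM per gene and library; fastp trimming, HISAT2 alignment to GRCg6a (Ensembl, April 2022) and StringTie v1.3.3b quantification came before it, per the labels' protocols. Cufflinks and DESeq2 appear in the submitters' processing notes without a stated role. FPKM fixes no depth: among 26957 ratios of low values, 7.3% were within 0.02 of a whole multiple, so reads were not recovered, no intervals from counts could be given, and shallow libraries could not be weighted down.

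Groups came from the sample labels. Genes at 1 FPKM or more in at least 4 of 24 libraries (10944 of 20780) entered a limma fit (3.58.1, under R 4.3.3) of log2(FPKM + 1) on 6 group means, with a mean-variance trend and 18 residual degrees of freedom. The 11 comparisons were each adjusted by Benjamini-Hochberg over all tested genes, and calls are adjusted p under 0.05. A fold change is on the log2(FPKM + 1) scale and understates changes of low genes. Scripts were tested on simulated data.

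Members and lists were chosen with earlier results of these data known. The rule for members given with values took every member called between diets, per role up to 4 called between muscles with the largest fold change in CONT hens and a mean of at least 5 FPKM, any called in opposite directions, and a fixed set of symbols; other members and genes are examples chosen after their values were seen. Each member is accounted for. Alternatives were quantile normalization, equal sums over nuclear-encoded genes, a pseudocount of 0.1, no filter, only the groups compared, the replicate number as a block, each library left out, and the 2 libraries that stood apart left out, which was chosen after seeing the data. RefSeq gene order (GRCg7b) served for neighbours, with 53 of the 55 symbols found. A sheet of 30 library names without values was not used.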

Additional observations from a re-analysis of the deposited data

Results flagged for a closer look

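Within groups of 4 libraries, 23 of 202 member-by-group sets held 1 library far from the other 3 by Dixon's criterion at the 95% level; chance gives about 1 in 20. The library most often apart was CONT PEM 2, with 5 genes. It had 3.81 FPKM of ITGB3, 26.4 FPKM of ITGB2, 43.9 FPKM of ITGB1, 0.758 FPKM of ITGA11 and 4.66 FPKM of ITGB1BP1, each above the other CONT PEM libraries. It also had the highest macrophage marker sum of all libraries (673 FPKM), whose part in these values was not tested.

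LHFD SOL 1 was high in 4 collagens: 18.5 FPKM of COL6A3, 39.1 FPKM of COL6A1, 48.5 FPKM of COL6A2 and 2.52 FPKM of COL22A1. CONT SOL 1 was high in ITGAV (2.87 FPKM), ITGB2 (5.63 FPKM) and COL4A2 (36.0 FPKM). CONT SOL 3 was low in COL6A1 (21.7 FPKM) and COL28A1 (2.42 FPKM) and high in ITGB5 (20.4 FPKM). SHFD SOL 4 was high in LAMB2 (53.8 FPKM) and COL12A1 (8.29 FPKM). SHFD PEM 1 was high in ITGAV (3.51 FPKM) and low in COL6A3 (7.80 FPKM). Single genes apart were COL13A1 in LHFD PEM 1 (0.938 FPKM), ITGA11 in CONT SOL 2 (2.05 FPKM), COL8A1 in LHFD SOL 3 (1.88 FPKM, low) and COL22A1 in LHFD PEM 4 (0.207 FPKM).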

How the results depend on the processing

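Of 58 called values of members, 37 kept their call under every alternative chosen from the labels and without any single library, and 21 lost it in at least 1. With only the groups compared, 0 members passed in PEM for LHFD and 0 for SHFD against CONT hens, and calls over all genes were 69 in place of 760 and 0 in place of 117, and 3 in place of 61 for SHFD against CONT hens in SOL; the cause was not tested. In SOL, LHFD against CONT hens gave 0 members with a pseudocount of 0.1 and 2 without CONT PEM 2 and LHFD PEM 1. Leaving out 1 library at a time, called members ranged from 17 to 27 in CONT, 14 to 17 in SHFD and 14 to 17 in LHFD hens between muscles. They ranged from 1 to 3 for LHFD and 1 to 2 for SHFD against CONT in PEM, and from 0 to 1 for both in SOL. With a pseudocount of 0.1 the ratios were -0.23 for COL1A1 to COL1A2, -0.30 for COL3A1 to COL1A1, 0.08 for COL4A1 to COL4A2 and 0.42 for ITGB1 to ITGB5 (exact permutation, adjusted p from 0.077 to 0.0935). Without CONT PEM 2 and LHFD PEM 1, COL1A1 to COL1A2 was -0.18 and did not pass, and COL6A3 to COL6A1 was -0.17 and passed. Without single libraries the ratios ranged from -0.28 to -0.20 for COL1A1 to COL1A2, -0.31 to -0.21 for COL3A1 to COL1A1, 0.07 to 0.11 for COL4A1 to COL4A2, -0.16 to -0.09 for COL6A3 to COL6A1, -0.32 to -0.16 for LAMB1 to LAMB2 and 0.38 to 0.52 for ITGB1 to ITGB5, and the calls of the 4 ratios that passed were lost without 11, 16, 13 and 12 of 24 libraries (COL1A1 to COL1A2, COL3A1 to COL1A1, COL4A1 to COL4A2 and ITGB1 to ITGB5). No result reversed. Read depth is unknown, so low members such as COL22A1 and ITGA9 carry an unmeasured counting error.

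The replicate number as a block gave 24 called members in CONT, 19 in SHFD and 18 in LHFD hens between muscles, and ended no call of a member. With it ITGB1BP2 was lower in SOL of CONT (-0.41, limma adjusted p = 0.0325) and LHFD hens (-0.41, adjusted p = 0.0357). COL6A1 (0.83, adjusted p = 0.0112) and ITGA7 (0.52, adjusted p = 0.036) became higher in SOL of CONT hens. In SHFD hens COL5A1 (0.46, adjusted p = 0.0439), COL5A2 (0.52, adjusted p = 0.0207) and COL6A2 (0.61, adjusted p = 0.036) did so, and in LHFD hens COL5A1 (0.54, adjusted p = 0.0257). Under the block the ratios COL1A1 to COL1A2 (-0.24) and ITGB1 to ITGB5 (0.43) did not pass (exact permutation, adjusted p = 0.0527 for both). Same-numbered libraries of the 2 muscles correlated in their deviations at -0.12 to 0.36, with 7 of 12 pairs over 0.1 and 17 of 24 libraries nearest their own number, a hint from the data and not the design.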

Other observations

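Beyond the named members, 7 entries without a symbol are annotated in the deposited table as collagen or laminin chains and passed the level filter; they were singled out after their values were seen. An entry annotated as laminin alpha 1/2 (ENSGALG00000053107) averaged 20.1 ± 5.47 FPKM in SOL and 6.02 ± 1.31 FPKM in PEM of CONT hens (SD, n = 4 each), with log2 fold changes of 1.57, 1.03 and 0.99 in CONT, SHFD and LHFD hens (limma, adjusted p = 4.0e-05, 0.00253 and 0.00402). A second laminin alpha 1/2 entry had 1.24, 0.91 and 0.82, a collagen XV entry 1.13, 0.82 and 0.81 and a collagen XIII entry 1.66, 2.17 and 1.99, all higher in SOL (limma, adjusted p up to 0.00834). The deposited table describes both laminin entries as laminin subunit alpha-2.

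The 3 entries annotated as type IV collagen alpha chains were lower in SOL of CONT hens, unlike COL4A1 and COL4A2. ENSGALG00000008141 averaged 0.715 ± 0.401 FPKM in SOL and 4.76 ± 2.31 FPKM in PEM of CONT hens (SD, n = 4 each; -1.68, limma adjusted p = 1.3e-04), and had -0.90 (adjusted p = 0.0197) in SHFD and -0.61 (adjusted p = 0.119) in LHFD hens. ENSGALG00000048179 had -1.57, -0.72 and -0.88 (adjusted p = 2.9e-04, 0.0577 and 0.0263) in CONT, SHFD and LHFD hens. The third such entry had -1.24, -0.58 and -0.56 (adjusted p = 1.7e-04, 0.0457 and 0.0572). All 3 were also lower in PEM of LHFD than of CONT hens, at -1.21 (adjusted p = 0.0204) for ENSGALG00000008141, -1.21 (adjusted p = 0.0207) for ENSGALG00000048179 and -1.08 (adjusted p = 0.00803) for the third. The annotation does not say which alpha chain each entry encodes.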
